A study of Rattus norvegicus with 9 samples.

Results

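The genes described here are 36 tumor suppressor and DNA damage genes, followed through puberty in the hypothalamus of normal female rats. They were taken from a list of names. Of the 36 genes, 35 had at least 1 probe set whose annotation gives that symbol alone, 58 probe sets of 31042 in all, and Atm was not analysed here. Single-channel Affymetrix rat expression arrays were made from hypothalamic tissue of 3 stages: juvenile females at day 26 (the controls, by their labels), early pubertal females at day 29, and late pubertal females at day 31. Each stage had 3 arrays, each from a hypothalamus of 1 rat, and all groups are normal females of a strain that the labels do not give.

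Tumor suppressors hold back growth in dividing cells, and most are also made in neurons and glia that no longer divide. There the pocket proteins keep cell cycle genes silent, the TSC proteins restrain the mTOR growth pathway, and merlin and neurofibromin damp signals from the membrane. The DNA damage genes find and mend breaks, mismatches and stalled replication, and steer the p53 response. The study group has proposed that a network of tumor-related genes, with transcription factors such as Cux1, Yy1, Maf and Usf2 as hubs, takes part in the control of puberty, so the question put to these arrays was whether this class of gene changes with stage.

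Levels are log2(signal + 16) after quantile normalization between arrays, and differences are log2 differences between stage means with the SE of the fit. Probe sets were tested where their mean over all 9 arrays passed the 40th percentile, a signal of about 62.8. This left 36 member probe sets of 29 genes, and 22 probe sets lay below it. The median signal per array ran from 79.8 to 122.3, and was 90.9 ± 10.7 (SD, n = 3) in early pubertal against 107 ± 5.37 in juvenile animals, with an exact two-sided permutation p of 0.1, the smallest value that 3 against 3 can give. The tissue carried its defining transcripts, all hypothalamic peptide genes, on every array, at levels that varied between arrays. Deposited signals ran from 5547 to 7664 for Pmch, 1151 to 5478 for Oxt, 2021 to 4602 for Avp and 762 to 2070 for Hcrt.

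No member passed the test at any stage. The limma fit with Benjamini-Hochberg adjustment called 0 of 36 member probe sets in each of the 3 pairwise comparisons and in the F test over all stages, against 0 of 18625 tested probe sets, a background of 0%. The median difference of the members was 0.02 between early pubertal and juvenile animals, −0.01 between late pubertal and juvenile animals and −0.06 between late and early pubertal animals. Over all tested probe sets these medians were −0.00142, −0.00148 and 0.000367. In the same order, 20, 17 and 14 of the 36 member probe sets had a difference above 0, against 49.6%, 49.6% and 50.1% of all tested probe sets. With arrays centred on their medians these counts were 14, 12 and 15, and without normalization between arrays they were 4, 14 and 32. The medians over all tested probe sets moved too. They were −0.0277, −0.0282 and −0.000501 with centring, and −0.24, −0.0159 and 0.22 without normalization. In bulk tissue, fewer cells of a type and less RNA per cell cannot be told apart, and this holds for every difference given here.

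**Figure D1:**
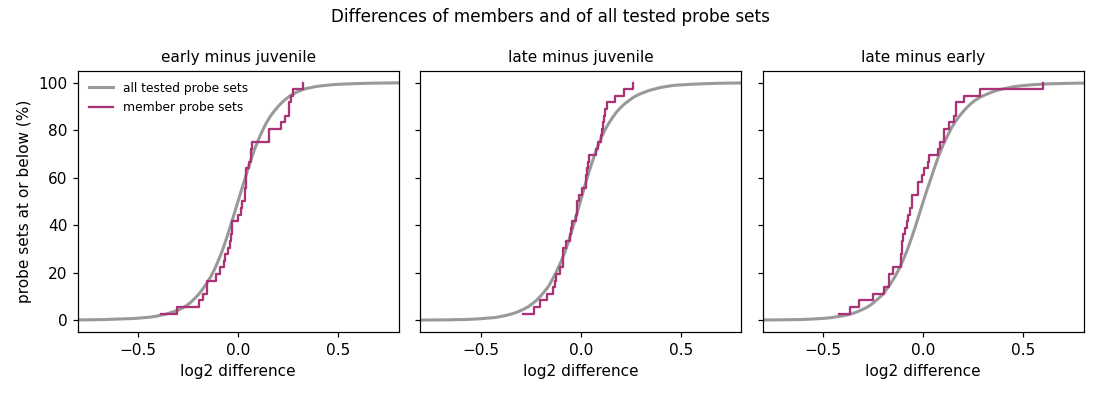
Each panel plots, for 1 comparison of stages, the share of probe sets (vertical axis, percent) with a log2 difference at or below the value on the horizontal axis, for the 36 member probe sets (purple steps) and all 18625 tested probe sets (grey line). The members lie along the grey line around medians of 0.02, −0.01 and −0.06, and the step at 0.60 in the comparison of late with early pubertal animals is Rad18.

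Before adjustment, 4 of 36 member probe sets had a limma p under 0.05 between early pubertal and juvenile animals, against 4.46% of tested probe sets. Nf2 and Xrcc5 were on the higher side (background 1.92%), and Rad18 and Rb1cc1 on the lower (2.54%). None of the 36 did between late pubertal and juvenile animals, where the background was 4.14%, made up of 2.23% higher and 1.92% lower. Between late and early pubertal animals 4 did, against 5.21%, with Rad18 and Rb1cc1 higher (background 2.94%) and Mdm2 and Smad4 lower (2.27%). In the F test 3 did, Rad18, Rb1cc1 and Mdm2, against 4.22%. Arrays of the early pubertal and juvenile stages were free of overlap for 5 member probe sets, against 8.3% of tested ones. Nf2 and Axin1 were higher (background 3.86%), and Rad18, Rb1cc1 and Wwox lower (4.43%). No tested member probe set was free of overlap between late pubertal and juvenile animals, against 11.4%, made up of 5.9% higher and 5.52% lower. Between late and early pubertal animals 5 were, against 11.3%, with Rad18, Rb1cc1 and Ext2 higher (background 5.97%) and Mdm2 and Smad4 lower (5.37%). The early pubertal arrays take part in every comparison in which a tested member probe set stood apart, and the comparisons that use them share those 3 arrays. After quantile normalization, 17 of the 36 member probe sets had their highest stage mean in early pubertal animals and 11 their lowest. The shares over all tested probe sets were not counted, so these counts have no background. They depend on the scaling, since without normalization between arrays 4 of 36 were higher in early pubertal than in juvenile animals. No member had all early pubertal arrays above the other 6, against 1.04%.

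Rad18, a ubiquitin ligase that lets replication pass damaged DNA, had the smallest p of all members. Its level was 7.34, 7.59 and 7.44 at day 26 (replicates 1, 2 and 3), 7.18, 6.98 and 7.06 at day 29 (replicates 7, 8 and 10), and 7.58, 7.85 and 7.59 at day 31 (replicates 12, 14 and 20). All early pubertal arrays were below all others, while juvenile and late pubertal arrays overlapped. Late pubertal minus early pubertal animals gave 0.60 ± 0.14 (SE, n = 3 per stage), a 1.52-fold difference, with an unadjusted limma p of 0.000985 and an adjusted p of 0.914. Among the 18625 tested probe sets, 7 had a smaller p in that comparison. Against juvenile animals the early pubertal difference was −0.38 ± 0.14 (adjusted p 0.994) and the late pubertal difference 0.22 ± 0.14 (adjusted p 0.9998), the latter 0.13 without late pubertal replicate 14.

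The same order is seen in the signals as deposited, before the quantile normalization used here. They were 166, 186 and 158 at day 26, 129, 98.8 and 91.7 at day 29 and 174, 218 and 208 at day 31. At that scale the median of all tested probe sets was itself 0.24 lower in early pubertal than in juvenile animals on the log2 scale, and the early minus juvenile difference of Rad18 was −0.61.

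Rb1cc1 encodes FIP200, a scaffold of the kinase complex that starts autophagy. Its brighter probe set (1379449_at) stood at 10.48, 10.46 and 10.30 at day 26, 10.22, 10.28 and 10.15 at day 29 and 10.56, 10.46 and 10.47 at day 31, in the replicate order above. The early pubertal arrays were again below the other 6, a pattern that 2 of 36 member probe sets showed against a background of 1.25%. The difference between late and early pubertal animals was 0.28 ± 0.07 (limma adjusted p 0.914), and between early pubertal and juvenile animals −0.20 ± 0.07 (adjusted p 0.994). Without normalization between arrays these were 0.50 and −0.44. The second probe set of the gene (1385194_at) went the other way, with −0.17 ± 0.16 and 0.15 ± 0.16, and its early pubertal arrays spread from 8.62 to 9.37. Without early pubertal replicate 8 those 2 values were 0.02 and −0.03.

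Markers of activity and of other cell types are given beside these values. Of 12 tested immediate early genes, which neuronal activity induces, limma called 0 in any comparison. Between early pubertal and juvenile animals 11 had a difference below 0 and 1 above. An unadjusted limma p under 0.05 was found for 2, both lower, against 2.54% of tested probe sets. Between late and early pubertal animals 11 of these genes were above 0 and 1 below. There 3 had p under 0.05, all higher, against 2.94%. Their summed normalized signal over 14 of 16 listed genes was 3849 to 4065 at day 26, 3056 to 3420 at day 29 and 3676 to 4427 at day 31. Astrocyte markers, 11 of 12 listed genes, summed to 37498 to 37865, 38239 to 39741 and 37674 to 40819, so early pubertal arrays lay above juvenile ones. Of the 11 genes, 9 were higher and 2 lower than in juvenile animals at both later stages, with 0 called. An unadjusted limma p under 0.05 was found for 2 in early (background 1.92%) and 4 in late pubertal animals (2.23%), all higher. The defining astrocyte markers Gfap and Aqp4 had signals of at least 3857 and 4972 on every array. Summed markers of neurons, oligodendrocytes, microglia and dividing cells overlapped between all stages. Single genes leaned 1 way in some lists, with 0 called. Of 14 tested neuron genes, 12 were lower and 2 higher in late pubertal than in juvenile animals. An unadjusted limma p under 0.05 was found for 4, all lower, against 1.92% of tested probe sets. All 9 tested microglial genes were lower in late than in early pubertal animals, 2 with p under 0.05 (background 2.27%). Leptomeningeal markers, 14 of 14 listed genes, summed to 19792 to 21590 in juvenile and 22238 to 24531 in late pubertal animals, without overlap. All 14 had a difference above 0, against 49.6% of tested probe sets, with 0 called. An unadjusted limma p under 0.05 was found for 3, all higher (background 2.23%). Between early pubertal and juvenile animals 13 were higher and 1 lower, 2 with p under 0.05, both higher (1.92%), and the sums overlapped. Choroid plexus markers, 9 of 10 listed genes, summed to 2935 to 3198 in early and 3242 to 3566 in late pubertal animals, without overlap. Only 5 of the 9 passed the signal filter. Of these, 4 were higher and 1 lower in that comparison, with 0 at an unadjusted limma p under 0.05. The part of these markers in the values of Rad18 and Rb1cc1 was not tested.

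**Figure D2:**
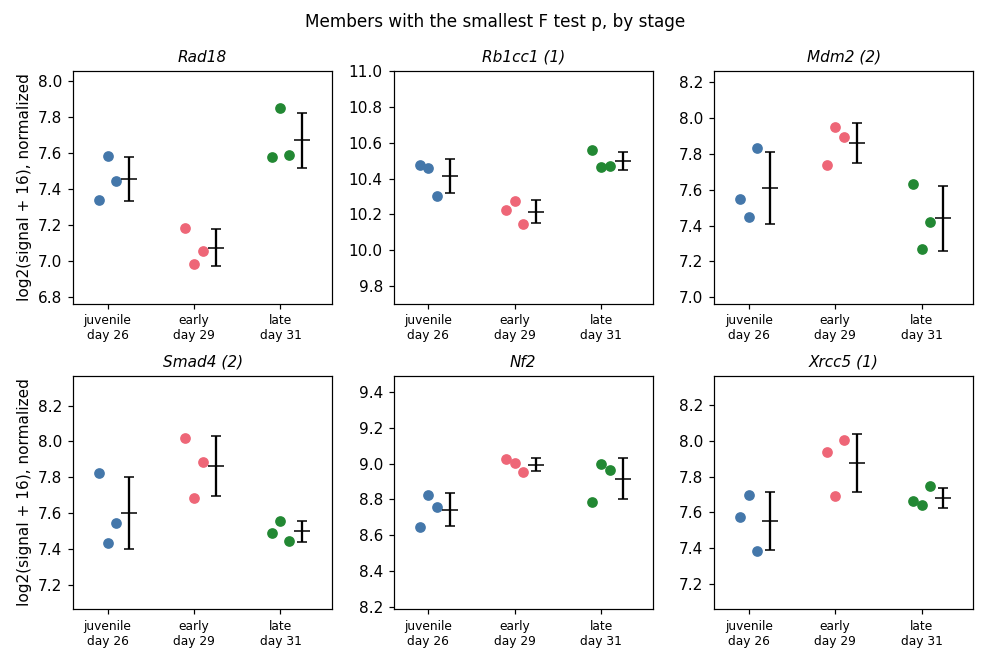
Normalized log2 levels (vertical axis, log2(signal + 16)) of the 6 member probe sets with the smallest F test p are plotted by stage (horizontal axis), with a coloured point for each of 3 arrays and a black mark with bars for the mean ± SD; a number in brackets marks a gene's probe set, brightest first. Every panel spans the same range of log2 units. The early pubertal points of Rad18 (6.98 to 7.18) and of Rb1cc1 (10.15 to 10.28) lie below all points of the other stages.

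Mdm2, the ubiquitin ligase that keeps p53 low, had the opposite order. On probe set 1384427_at its level was 7.55, 7.45 and 7.83 at day 26, 7.74, 7.95 and 7.89 at day 29 and 7.63, 7.27 and 7.42 at day 31. Late and early pubertal arrays did not overlap, with a difference of −0.42 ± 0.15 (limma adjusted p 0.914), or −0.18 without normalization between arrays. The brighter Mdm2 probe set (1383288_at) gave −0.11 ± 0.11 in that comparison, and 0.12 without normalization. It was −0.18 without early pubertal replicate 7, −0.028 without early pubertal replicate 8 and −0.070 without late pubertal replicate 14. Gadd45a, a stress-induced protein that p53 can induce, had stage means of 8.38 ± 0.12 (SD, n = 3), 8.34 ± 0.24 and 8.50 ± 0.08, and its stages overlapped.

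The DNA just before the start sites of Rad18 and Mdm2 is shown because these members stood at opposite ends in the comparison of late with early pubertal animals, and that of Brca1 because it held both E2F letters searched. Each is the 250 bases before the RefSeq start in GRCr8, 5′ to 3′ on the gene's strand, with matches in capitals. The windows are chr4:147376870-147377119, chr7:55200792-55201041 and chr10:86977582-86977831, all on the minus strand.

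Rad18: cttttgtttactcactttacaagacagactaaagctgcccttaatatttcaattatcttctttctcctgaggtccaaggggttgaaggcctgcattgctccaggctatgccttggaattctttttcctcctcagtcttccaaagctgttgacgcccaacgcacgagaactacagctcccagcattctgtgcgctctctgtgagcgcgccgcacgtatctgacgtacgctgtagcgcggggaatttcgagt
Mdm2: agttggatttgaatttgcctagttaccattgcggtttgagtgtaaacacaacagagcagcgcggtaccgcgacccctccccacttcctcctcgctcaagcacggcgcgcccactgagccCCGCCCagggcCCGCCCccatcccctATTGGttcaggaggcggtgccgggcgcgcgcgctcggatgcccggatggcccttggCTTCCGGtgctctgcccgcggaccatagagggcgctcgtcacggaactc
Brca1: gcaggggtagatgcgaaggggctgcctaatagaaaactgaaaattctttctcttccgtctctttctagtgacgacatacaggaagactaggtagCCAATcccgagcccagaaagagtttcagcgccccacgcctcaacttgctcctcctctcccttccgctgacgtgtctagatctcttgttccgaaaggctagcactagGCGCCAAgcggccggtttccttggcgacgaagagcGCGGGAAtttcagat

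The letters searched on both strands were TTCCCGC or TTGGCGC (E2F), CCGGAAG (ETS), GGGCGG (GC box), CCAAT and TATAAA, and a match may overlap that of another motif. The Rad18 window held none of them. The Mdm2 window held GC boxes starting 131 and 120 bases before the start, a CCAAT box at 105 and an ETS match at 49. The Brca1 window held E2F letters at 50 and 15 bases and a CCAAT box at 156. Of the 35 genes, 28 matched a promoter. E2F letters were in 4 of these, Brca1, Rassf1, Rb1 and Wwox, or 14.3%, against 9.89% of 8827 promoters of genes tested on the arrays and 5.32% of all 27457. GC boxes were in 60.7%, 59.998% and 32.4% in the same order, and CCAAT in 35.7%, 35.4% and 34.3%. ETS letters were in 10.7%, 15.1% and 7.74%, and TATAAA in 3.57%, 6.17% and 13.1%. These shares describe the letters in these windows only.

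The pocket proteins bind E2F factors and hold cell cycle genes silent. Rb1 stood at 8.88 ± 0.17 (SD, n = 3) at day 26, 8.72 ± 0.08 at day 29 and 8.83 ± 0.08 in late pubertal animals. Rbl2, which encodes p130, the family member of resting cells, stood at 8.27 ± 0.03, 8.18 ± 0.22 and 8.31 ± 0.07. For neither gene did the stages separate, and the 95% intervals of the late minus juvenile difference ran from −0.29 to 0.19 and from −0.23 to 0.31. Rbl1, which encodes p107 and is made mostly in cycling cells, lay below the filter, with deposited signals of 51.0, 53.2 and 50.4, then 52.4, 21.5 and 41.7, then 41.0, 57.9 and 49.0.

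Tsc1 and Tsc2 form the complex that turns mTOR off. Tsc1 stood at 9.14 ± 0.12, 9.14 ± 0.10 and 9.16 ± 0.04, and Tsc2 at 9.69 ± 0.12, 9.72 ± 0.18 and 9.69 ± 0.06 in the order of the stages. The 95% interval of the early minus juvenile difference was −0.21 to 0.21 for Tsc1 and −0.19 to 0.26 for Tsc2, so a change of 1.41-fold lies outside both. Stk11, the kinase LKB1 that acts upstream of AMPK, was below the filter on its 3 probe sets, whose mean signals ran from 6.41 to 20.7.

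Nf2 encodes merlin, which links membrane proteins to the actin cortex and feeds the Hippo pathway. Its tested probe set stood at 8.65, 8.83 and 8.76 at day 26, 9.02, 9.005 and 8.95 at day 29 and 8.79, 8.997 and 8.96 in late pubertal animals. All early pubertal arrays were above the juvenile ones, and late pubertal arrays overlapped both. The differences from juvenile animals were 0.25 ± 0.10 (limma adjusted p 0.994) in early and 0.17 ± 0.10 (adjusted p 0.9998) in late pubertal animals. The first was −0.00787 without normalization between arrays. Rassf1, a scaffold of the Hippo kinases, spread from 7.48 to 8.34 over the 9 arrays, with −0.32 ± 0.21 between late and early pubertal animals (adjusted p 0.914). That difference was −0.18 without early pubertal replicate 7, −0.48 without early pubertal replicate 8, −0.21 without late pubertal replicate 20 and −0.088 without normalization. Dlc1 stood at 8.30 ± 0.15, 8.33 ± 0.11 and 8.41 ± 0.04 on its tested probe set. Nf1, whose product neurofibromin switches Ras off, had signals of 6.93 to 36.1 and was not tested.

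Apc and Axin1 belong to the complex that destroys beta-catenin. Axin1 stood at 7.41, 7.46 and 7.42 at day 26, 7.75, 7.51 and 7.85 at day 29 and 7.43, 7.45 and 7.71 in late pubertal animals. Early pubertal arrays were above the juvenile ones, by 0.27 ± 0.14 (limma adjusted p 0.994), or 0.033 without normalization between arrays. The bright Apc probe set (1376629_at) had the narrowest range of all members, 0.16 over 9 arrays, with stage means of 10.02 ± 0.01, 9.95 ± 0.07 and 9.97 ± 0.05. Between late pubertal and juvenile animals it gave −0.04 ± 0.07, and −0.067 and −0.014 without late pubertal replicates 14 and 20. The dimmer tested Apc probe set (1387837_at) gave −0.24 ± 0.19 (adjusted p 0.9998). This was −0.12 and −0.38 without juvenile replicates 1 and 2, and −0.14 and −0.36 without late pubertal replicates 12 and 14.

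Smad4, the partner that all receptor-activated Smads of TGF-beta and BMP signalling share, was read by a pair of tested probe sets that gave different pictures. The dimmer (1367910_at) stood at 7.82, 7.43 and 7.55, then 8.02, 7.68 and 7.88, then 7.49, 7.56 and 7.45. Its early and late pubertal arrays did not overlap, at −0.36 ± 0.14 for late minus early (limma adjusted p 0.914), and its early minus juvenile difference was 0.26 ± 0.14 (adjusted p 0.994). Without normalization between arrays these were −0.13 and 0.012. The brighter (1386984_at) gave −0.00407 and 0.03 ± 0.14 for the same comparisons. Vhl, the ubiquitin ligase subunit that removes hypoxia-inducible factors, stood at 9.47 ± 0.10, 9.51 ± 0.09 and 9.44 ± 0.10.

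Repair of double-strand breaks by end joining begins with the Ku dimer of Xrcc5 and Xrcc6. Xrcc5 (1370931_at) stood at 7.58, 7.70 and 7.38 at day 26, 7.94, 7.69 and 8.003 at day 29 and 7.66, 7.64 and 7.75 in late pubertal animals. Early pubertal replicate 8 lay just within the juvenile range, and the difference was 0.32 ± 0.13 (limma adjusted p 0.994), or 0.079 without normalization between arrays. The dimmer Xrcc5 probe set (1378834_at) gave 0.07 ± 0.21, and Xrcc6 had stage means of 7.07 ± 0.12, 7.29 ± 0.15 and 7.18 ± 0.18. Brca1 and Brca2, which act in repair by homologous recombination, were dim, with signals of 19.0 to 58.7 and 5.25 to 75.3 over the 9 arrays, as was the checkpoint kinase gene Chek2 at 2.03 to 19.9. These 3 genes lay below the filter and were not part of the main fit.

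The remaining repair genes were bright enough to test. Parp1, which senses strand breaks, stood at 8.97 ± 0.05, 8.92 ± 0.03 and 8.998 ± 0.14. Msh6, of mismatch repair, stood at 8.14 ± 0.15, 8.07 ± 0.14 and 8.01 ± 0.13, and Ercc1, of nucleotide excision repair, at 8.14 ± 0.15, 8.11 ± 0.19 and 8.05 ± 0.10. No pair of stages separated for these 3 genes.

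Ext1 and Ext2 together make the heparan sulfate chain of cell surface proteoglycans. Ext2 had the smallest p of the members between late pubertal and juvenile animals. Its levels were 8.96, 9.02 and 9.17, then 9.11, 9.10 and 9.10, then 9.18, 9.14 and 9.60. The late pubertal arrays overlapped the juvenile ones, at a difference of 0.26 ± 0.12 (limma adjusted p 0.9998), and late minus early pubertal gave 0.21 ± 0.12 (adjusted p 0.914) with no overlap. Late pubertal replicate 20 was the high array, and without it these differences were 0.11 and 0.058. Without normalization the second was 0.43. Ext1 stood at 8.31 ± 0.12, 8.33 ± 0.10 and 8.30 ± 0.19.

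The surface proteins Dcc, the netrin receptor of growing axons, and Cdh1, E-cadherin, were near the filter. Dcc was 6.87, 6.45 and 6.80 in juvenile and 6.49, 6.52 and 6.51 in late pubertal animals, with a difference of −0.20 ± 0.17 (limma adjusted p 0.9998), or −0.12 and −0.34 without juvenile replicates 1 and 2. Cdh1 was 6.47, 6.50 and 6.80 in juvenile and 6.01, 6.63 and 6.27 in late pubertal animals, at −0.29 ± 0.22 (adjusted p 0.9998). It was −0.18 without juvenile replicate 3, −0.14 without late pubertal replicate 12, −0.45 without late pubertal replicate 14 and −0.18 with a constant of 64 before the log. Stages overlapped for the tested probe set of each gene. Wwox, an oxidoreductase gene at a fragile chromosomal site, had early pubertal arrays below the juvenile ones, with stage means of 7.39 ± 0.07, 7.08 ± 0.18 and 7.25 ± 0.29. Fhit, at another fragile site, stood at 7.50 ± 0.10, 7.57 ± 0.15 and 7.42 ± 0.19.

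Of the nuclear regulators, Men1 encodes menin, a subunit of histone methyltransferase complexes, and Ing1 a reader of histone marks. The bright Men1 probe set stood at 9.06 ± 0.14, 9.10 ± 0.15 and 8.99 ± 0.07, and the bright Ing1 probe set at 9.51 ± 0.09, 9.47 ± 0.15 and 9.63 ± 0.20. Bin1, which shapes membranes and binds Myc, stood at 9.89 ± 0.14, 9.73 ± 0.19 and 9.83 ± 0.13. No stage separated from another for these probe sets.

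**Figure D3:**
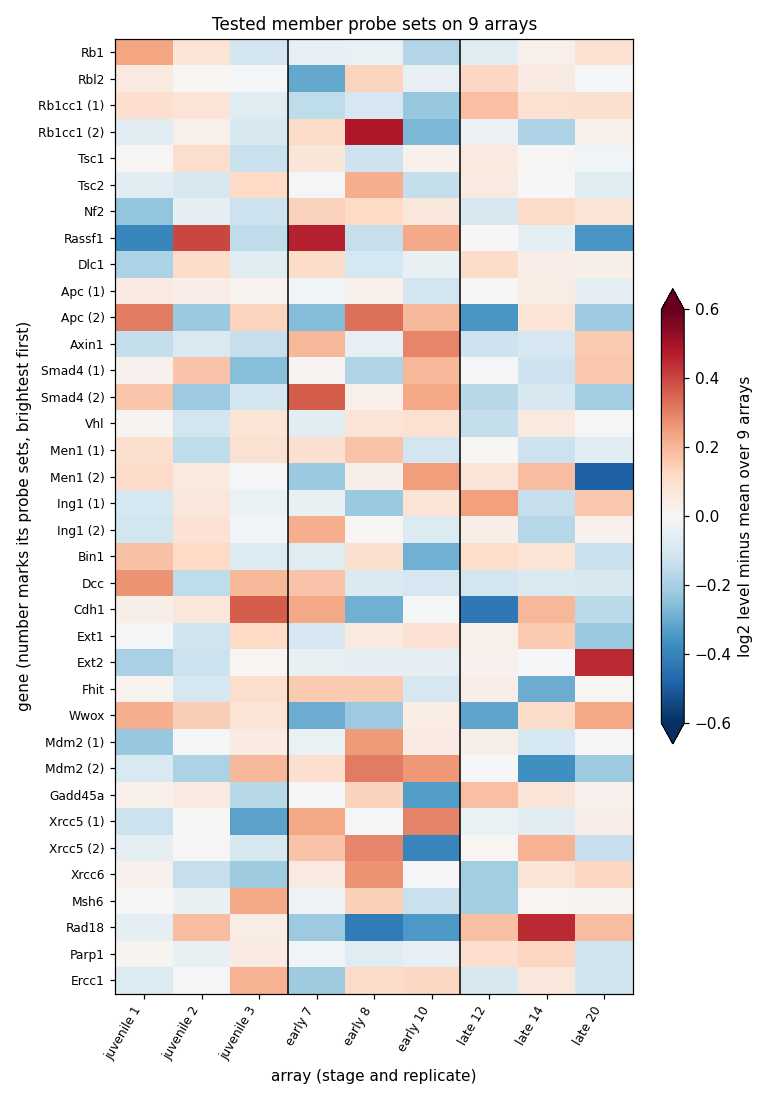
Rows are the 36 tested member probe sets in the order of their roles and columns the 9 arrays by stage and replicate; colour gives the log2 level minus the mean of that probe set over the arrays, red above and blue below. Rad18 is blue in all 3 early pubertal columns, Rb1cc1 (1) is weakly so, and the dark cells of Rb1cc1 (2) in early pubertal replicate 8 and Ext2 in late pubertal replicate 20 are single arrays.

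Genes read by more than 1 tested probe set show how far a single probe set can be relied on. There were 7 such genes, and in each of the 3 comparisons the probe sets of 3 genes had the same sign and those of 4 had opposite signs. The pooled SD between arrays of a stage had a median of 0.15 over member probe sets and 0.17 over all tested probe sets. The 95% interval of a member's difference had a median half-width of 0.28. It lay within ±0.5 log2 units, a 1.41-fold change, for 26, 27 and 27 of 36 member probe sets in the 3 comparisons, and within ±1, a 2-fold change, for all 36. The number of arrays limits this precision.

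**Figure D4:**
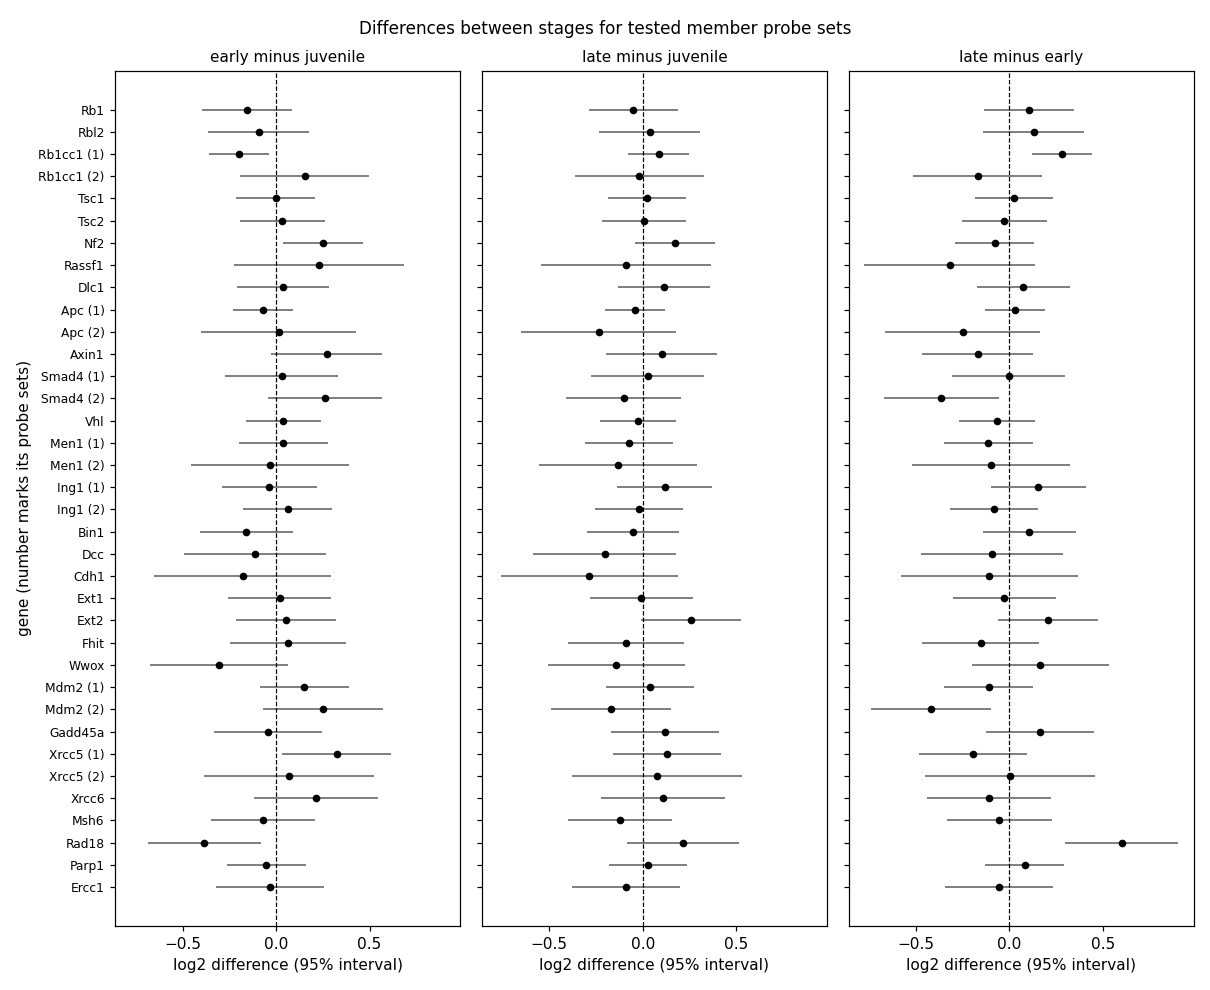
Log2 differences (horizontal axis) of the 36 tested member probe sets (vertical axis) are plotted as points with their 95% intervals from the limma fit, for the 3 comparisons of stages. All intervals lie within ±1, and in the panel of late minus early pubertal animals Rad18 lies farthest from 0 at 0.60.

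The wider pathways around the members were read from 17 lists of 289 genes, of which 248 had a probe set and 224 were tested, 1 probe set per gene. The limma fit called 0 of them in any comparison. Before adjustment, 5 were higher and 7 lower with p under 0.05 between early pubertal and juvenile animals, 5.36% against 4.38% of all 10600 tested genes. The counts were 6 and 3 between late pubertal and juvenile animals, 4.02% against 3.79%, and 6 and 3 between late and early pubertal animals, 4.02% against 4.66%. Median differences of the 224 genes were −0.02, −0.00828 and 0.00342. Among p53 response genes, 17 tested with 9 above 0 and 8 below between late pubertal and juvenile animals, Gadd45g, a relative of Gadd45a, had 0.60 ± 0.16 (adjusted p 0.9998), and arrays that did not overlap. In that list 1 gene was higher and 1 lower with an unadjusted limma p under 0.05. Among genes of the beta-catenin destruction complex and its regulators, 15 tested, 3 had a difference above 0 and 12 below in that comparison, and 0 were called. Dvl3, among the 3, had 1.04 ± 0.25 (adjusted p 0.9998), from a dim probe set at a mean level of 6.41. Among RB-binding genes, 14 tested with 8 above 0 and 6 below, Arid4a had 0.38 ± 0.11 (adjusted p 0.9998). The 22 tested genes around mTOR and the 16 of autophagy had 11 and 8 differences above 0 between late pubertal and juvenile animals, and 0 and 1 with an unadjusted p under 0.05, all lower. All 7 tested genes of the mismatch repair list had a difference above 0 in that comparison, against 49.6% of all tested probe sets. Their median was 0.18, and 0 had an unadjusted limma p under 0.05. The member Msh6, also of mismatch repair, is not in that list and had −0.12 ± 0.13.

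The genes that the study group placed at the centre of its tumor-related network were read in the same way. Of 9 listed, 8 were tested (Cux1, Maf, Yy1, Usf2, Cadm1, Pou2f2, Nkx2-1 and Irf2bpl) and 0 were called by limma. Between early pubertal and juvenile animals 3 had a difference above 0 and 5 below, and between late pubertal and juvenile animals 5 above and 3 below, with medians of −0.01 and 0.03. Between late and early pubertal animals 5 were above and 3 below, with a median of 0.07. The members' medians, 0.02, −0.01 and −0.06, had the opposite sign in each comparison, a difference that was not tested. The signs of the members' medians are not stable. With single arrays left out the first ran from −0.027 to 0.046 and the second from −0.014 to 0.020. With median centring the first was −0.021, and without normalization between arrays the third was 0.19. Cadm1, an adhesion molecule of synapses and glia, had −0.26 ± 0.09 in early pubertal animals, the only hub with an unadjusted p under 0.05 against juvenile animals. Irf2bpl, a nuclear regulator, was 0.19 ± 0.07 between late and early pubertal animals. Some of these genes may have been chosen on these arrays, so the list is not independent evidence of its direction.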

How the data were processed

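The authors deposited 1 linear signal intensity for each probe set and array, computed with MAS5 according to the submitters' processing notes. Its version and target level were not stated. Per the labels' protocols, total RNA was purified on columns and biotin-labelled cRNA was made from cDNA primed with oligo-dT. Of 31099 probe sets, 57 controls were left out, and 20826 of the other 31042 have 1 gene symbol in the platform annotation. Intensities were taken as log2(signal + 16), quantile-normalized between the 9 arrays, and tested for the 18625 probe sets whose mean passed the 40th percentile. The linear model of limma 3.58.1 (R 4.3.3) held a mean for each stage and used all 9 arrays. Its variances were moderated towards a trend on intensity, with 5.80 prior degrees of freedom beside 6 residual. Tests were two-sided, and Benjamini-Hochberg adjustment ran over all tested probe sets within a comparison, at 0.05. The fit was also run on simulated arrays with planted differences of at least 1 log2 unit and without array effects. That run does not bear on smaller differences. Fold changes understate those of dim probe sets. Replicate numbers are not shared between stages, so nothing was paired, and the labels give no batch.

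The members and lists were chosen with earlier results of these data known. A member probe set is given with its difference where it was among the 6 with the smallest unadjusted p in a comparison or in the F test, with the other tested probe sets of that gene; other members are given by their stage means, and Wwox, outside the rule, was named after its values were seen. Of each list, up to 2 genes by F test p were eligible to be named. Promoters are from RefSeq, build GRCr8, matched by gene identifier. The alternatives were other constants before the log (1 and 64), the level as deposited, median centring, other signal filters, other variance priors, array weights, fits on the 6 arrays of a comparison, 1 probe set for each gene, a threshold of 0.1 and leaving out each array in turn.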

Additional observations from a re-analysis of the deposited data

How the results depend on the processing

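Under every alternative run, 0 member probe sets were called in any comparison, and the smallest limma adjusted p among the named members was 0.0825, for Rad18 between late and early pubertal animals without normalization between arrays. Rad18 kept its sign under all alternatives in which it was tested, with 0.46 to 0.82 for late minus early and −0.61 to −0.29 for early minus juvenile. Without normalization between arrays, the median member difference was −0.23 for early minus juvenile and 0.19 for late minus early, beside −0.24 and 0.22 over all tested probe sets, with 4 of 36 and 32 of 36 member probe sets above 0. In that setting limma called 10, 1 and 21 probe sets of all tested in the 3 comparisons and 16 in the F test. Array weights gave 1 call between late pubertal and juvenile animals. Leaving out an array gave 0 to 1 calls in that comparison and in the F test, the 1 arising without juvenile replicate 2, and 0 in the others. Signs turned without normalization for Nf2 at −0.00787, the brighter Mdm2 probe set at 0.12, the dimmer Rb1cc1 probe set at −0.11 for early minus juvenile and 0.070 for late minus early, the brighter Smad4 probe set at −0.23 and 0.23, and the dimmer Xrcc5 probe set at −0.13. With median centring the brighter Smad4 probe set gave −0.021 and 0.00398, and with array weights the dimmer Xrcc5 probe set gave −0.023. When single arrays were left out, the dimmer Rb1cc1 probe set ran from −0.034 to 0.34 for early minus juvenile and from −0.36 to 0.017 for late minus early. The brighter Smad4 probe set ran from −0.088 to 0.13 and from −0.10 to 0.090, and the dimmer Xrcc5 probe set from −0.067 to 0.28 for early minus juvenile. The cause of these turns was not tested. No paired analysis was possible because the stages share no replicate numbers.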

Other observations

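Values are given here for 3 member probe sets below the signal filter. They were read from a fit over all 31042 probe sets, in which the smallest limma adjusted p among the 22 dim member probe sets was 0.884, and 3 of the 22 (13.6%) had an unadjusted p under 0.05 in a pairwise comparison, against 10.8% of all probe sets and 11.9% of the 12417 below the filter. They were chosen after their values were seen. The dim probe set of Cdh1, E-cadherin, had deposited signals of 13.96, 15.4 and 19.2 at day 26, 3.13, 1.37 and 1.81 at day 29 and 9.999, 9.88 and 17.8 at day 31, so the early pubertal arrays lay below all others, as they did for 1.01% of probe sets below the filter. A dim probe set of Dlc1 had 6.22, 5.24 and 4.97, then 8.59, 29.1 and 17.8, then 22.2, 35.4 and 35.97, so the juvenile arrays lay below all others, as for 0.966%. The tested probe sets of both genes overlapped between stages. The Brca1 probe set had 39.5, 43.4 and 58.7, then 41.9, 47.2 and 37.7, then 39.1, 19.0 and 34.2. These deposited signals of early and late pubertal animals overlapped. After normalization the levels did not, at 5.85, 6.05 and 6.07 against 5.75, 5.12 and 5.44, as for 5.52% of probe sets below the filter in that direction. The late minus early difference was −0.55 ± 0.23 (limma adjusted p 0.921). The late pubertal arrays also lay below the juvenile ones, in the deposited signals and in the normalized levels (5.77, 5.81 and 6.22 at day 26). That difference was −0.49 ± 0.23 (limma adjusted p 0.9996), and the share of dim probe sets with such a separation was not counted.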
